A study of Homo sapiens with 4 samples.

Results

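Long noncoding RNA genes recognised by their names were followed in a MeTA experiment, in which a protein built to switch on genes at methylated DNA was induced in prostate cancer cells. A gene was included when its current RefSeq symbol began with LINC or SNHG and a number, ended in -AS1, -AS2 or -IT1, or began with MIR and ended in HG. The rule uses the names alone. It gave 550 genes, measured by 646 probes, of the 19483 genes that could be named on the array. By name, 279 were LINC genes (long intergenic), 223 antisense genes (-AS1 or -AS2), 21 microRNA host genes, 15 SNHG genes (small nucleolar RNA hosts) and 12 intronic genes (-IT1).

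The cells were TR9_MeTA14 and TR15_MeTA5, each a stable clone derived from LNCaP, an androgen-sensitive prostate cancer line. Both carried the Tet repressor and an inducible, FLAG-tagged fusion of the NFκB activation domain with a methyl-CpG binding domain, NFκB (AD)-MBD. Each line was grown without tetracycline (-Tet) or with it for 4 days (+Tet), and total RNA from each of the 4 conditions was hybridised to 1 single-colour Agilent array. There was therefore 1 array per condition, the arrays lay on 1 slide, and parental cells, which lack the fusion, were not on the arrays used here. Each line is 1 clone, so that clone and line cannot be told apart.

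Long noncoding RNAs are transcripts without a protein product. Antisense and intergenic ones often start beside a coding gene and share its promoter region, and such promoters can be silenced by DNA methylation in cancer. SNHG transcripts carry small nucleolar RNAs, guides for ribosomal RNA modification, in their introns. Several of them carry the start sequence typical of transcripts whose translation follows growth signals. MicroRNA host genes carry microRNA precursors.

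Signals below are the processed intensities of the array. Fold changes compare +Tet with -Tet after each array was divided by its 75th percentile, a level that differed 1.26-fold between the arrays of TR9_MeTA14 and 1.48-fold between those of TR15_MeTA5. Replicate spots within an array, of probes with 10 spots that were well above background, gave a technical SD of 0.0875 for a log2 fold change. It does not include variation between cultures, labellings or arrays, and does not cover dimmer probes. A gene was represented by its brightest probe, and where the dimmer array was not well above background the fold is a lower bound, written "at least". On this scale the probes above background on all 4 arrays had a median log2 fold change of -0.15 in TR9_MeTA14 and -0.19 in TR15_MeTA5. Of 10 luminal prostate markers, 9, KLK3 (prostate-specific antigen) among them, were well above background on all 4 arrays, and TRPM8 was not in TR15_MeTA5. Of 9 markers of other cell types, PTPRC, COL1A1 and CDH5 were well above background on all 4 arrays, PECAM1 on both +Tet arrays, and KRT5, TP63, COL1A2 and SYP on none. The neuroendocrine marker CHGA was at least 4.06-fold higher with tetracycline in TR9_MeTA14 and at least 14.9-fold higher in TR15_MeTA5. The summed signal of these 9, relative to the 75th percentile, was 1.10 and 1.12 in TR9_MeTA14 and 0.653 and 1.21 in TR15_MeTA5, and their part in the results was not tested.

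Most of these genes were dim. Of the 550, 234 were not well above background on any array and 210 were well above it on all 4, which is 38.2% against 65.2% of all named genes. The number well above background was 256 in TR9_MeTA14 -Tet and 296 in TR9_MeTA14 +Tet, and 226 and 238 in the corresponding arrays of TR15_MeTA5. In TR9_MeTA14, 53 genes were well above background on the +Tet array but not on the -Tet array, and 13 the other way round, 9.64% and 2.36% against 7.78% and 1.54% of all named genes. In TR15_MeTA5 these were 24 and 12 genes, 4.36% and 2.18% against 5.62% and 1.94%. A fold change could be given for 300 genes in TR9_MeTA14, for 248 in TR15_MeTA5 and for 240 in both.

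In TR9_MeTA14, 33 of the 300 genes were at least 2-fold higher with tetracycline, 11% against 16.8% of all genes compared. In the same line 46 were at least 2-fold lower, 15.3% against 15.1%. In TR15_MeTA5, 16 of 248 were higher, 6.45% against 9.79%, and 9 were lower, 3.63% against 2.22%. In both lines together 9 of 240 were higher, 3.75% against 8.21%, and 2 were lower, 0.833% against 0.837%. No gene was past 2-fold in opposite directions, where the share over all genes was 0.143%. The median log2 fold change of the group was -0.05 in TR9_MeTA14 and -0.07 in TR15_MeTA5, beside -0.06 and -0.16 over all genes. When the array's spike-in probes set the scale instead, both medians turned positive, at 0.090 and 0.36, and the calls were 42 higher and 40 lower in TR9_MeTA14 and 27 and 2 in TR15_MeTA5. Quantile normalization gave 24 and 52, and 14 and 14. The 9 genes higher in both lines became 16 on the spike-in scale and 4 after normexp background correction. No share over all genes was computed on these scales, so the counts describe the list alone. The spike-in scale also raised the median over probes above background on all 4 arrays, to -0.01 in TR9_MeTA14 and 0.25 in TR15_MeTA5. Of the calls, 14 of the 33 and 5 of the 16 higher ones were bounds.

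The only replication in the design is over the cell lines. A limma model with cell line and tetracycline, which leaves 1 residual degree of freedom, called 1 of 259 tested genes higher after Benjamini-Hochberg adjustment over all probes, beside 3.15% of all genes, and none lower, beside 0.00691%. At an unadjusted p under 0.05 it gave 40 of the 259, 15.4% against 21.3%. Without the filter on dim probes the model called 6 higher and 1 lower, and no share over all genes was computed for that fit.

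**Figure D1:**
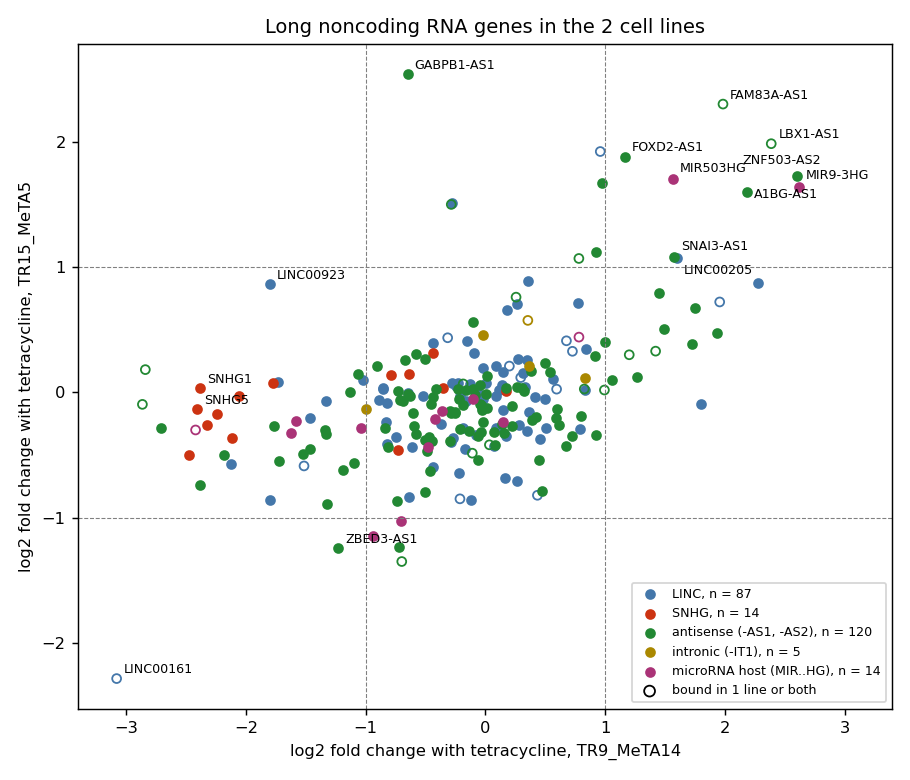
Each point is a long noncoding RNA gene with a fold change in both lines, placed by its log2 fold change in TR9_MeTA14 (x axis) and in TR15_MeTA5 (y axis), coloured by name group, with dashed lines at 2-fold. Open points are bounds in 1 line or both. The 9 genes higher in both lines fill the upper right corner, and the 8 SNHG genes lower in TR9_MeTA14 lie at the left, within 2-fold on the y axis.

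The 9 genes higher in both lines were 6 antisense genes, 2 microRNA host genes and 1 LINC gene. LBX1-AS1 (NR_029380), antisense to the homeobox gene LBX1, was the gene called by limma, and it met the filter on dim probes through its +Tet arrays alone. In TR9_MeTA14 it read 3.34 without and 101.8 with tetracycline. In TR15_MeTA5 the corresponding signals were 4.01 and 90.1. Both -Tet arrays were not well above background, so it was at least 5.23-fold higher in TR9_MeTA14 and at least 3.95-fold higher in TR15_MeTA5. The limma estimate was 4.26 ± 0.417 (log2, SE) with an adjusted p of 0.029, but it uses the signals under background and is no bound. Over the 7 alternative fits that tested the probe the adjusted p ran from 0.00698 to 0.0327, and a fit limited to probes above background on all 4 arrays leaves it out. These fits use the same 4 arrays and are no independent support. Under normexp the estimate was 1.15, and the log2 fold change in TR9_MeTA14 was 0.85, short of 2-fold. FAM83A-AS1 (NR_024479) was likewise not well above background without tetracycline, with 8.07 and 3.52 in the -Tet arrays of TR9_MeTA14 and TR15_MeTA5 and 77.0 and 112.2 in their +Tet arrays. It was at least 3.96-fold and at least 4.92-fold higher.

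ZNF503-AS2 (NR_024421) lies across from ZNF503, a zinc-finger repressor of transcription. Its signal read 121.1 without and 924.7 with tetracycline in TR9_MeTA14, and 85.1 and 415.0 in TR15_MeTA5, that is, log2 fold changes of 2.60 and 1.72. Both -Tet arrays were below both +Tet arrays. A1BG-AS1 (NR_015380), antisense to a plasma glycoprotein gene, went from 437.3 to 2502 and from 199.3 to 890.2, for log2 fold changes of 2.19 and 1.59. FOXD2-AS1 (NR_026878), beside the forkhead gene FOXD2, was dim without tetracycline, at 35.4 and 18.6, and read 99.7 and 101.2 with it. Its log2 fold change was 1.16 in TR9_MeTA14 and 1.88 in TR15_MeTA5.

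SNAI3-AS1 (NR_024399), antisense to SNAI3 of the Snail family, read 483.6 without and 1815 with tetracycline in TR9_MeTA14, and 297.1 and 926.9 in TR15_MeTA5. Its brightest probe gave log2 fold changes of 1.58 and 1.08, while its other probe gave 1.25 and 0.30, so the TR15_MeTA5 call rests on 1 of 2 probes. LINC00205 (NR_026943) went from 219.7 to 837.3 and from 71.3 to 222.1, with log2 fold changes of 1.60 and 1.07. Its other probe was not well above background on any array. The limma adjusted p of the 8 other genes in this group ran from 0.059 for FAM83A-AS1 to 0.158 for FOXD2-AS1, and none passed. FAM83A-AS1, like LBX1-AS1, met the filter on dim probes through its +Tet arrays alone, and its estimate uses signals under background.

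**Figure D2:**
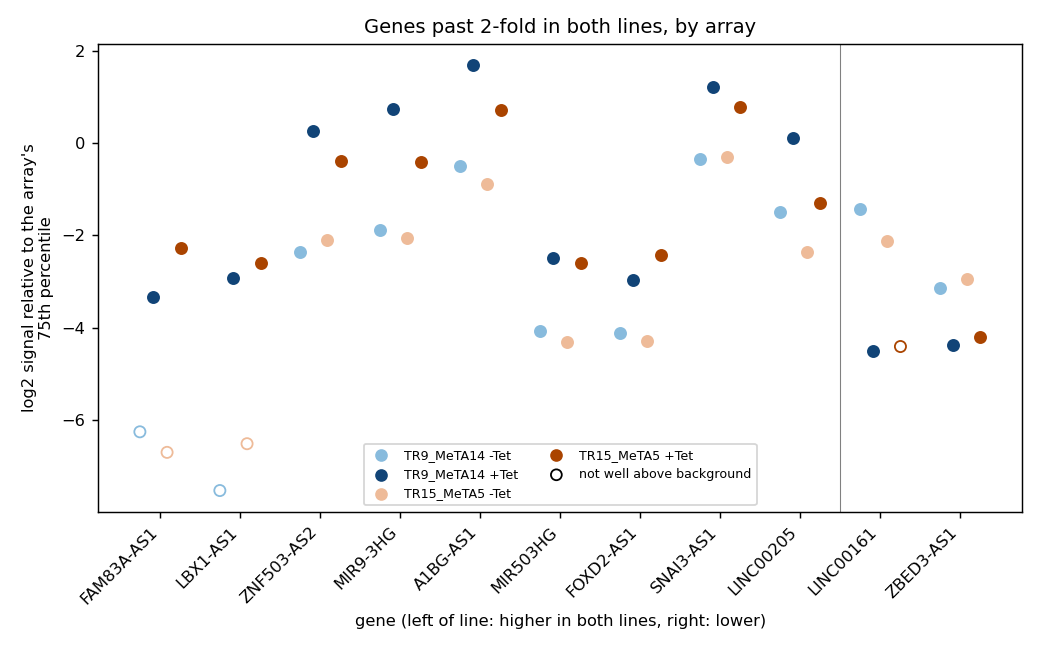
Log2 signal relative to the 75th percentile of the array, for the 9 genes higher and the 2 lower in both lines, with 1 point per array and open points where the probe was not well above background. In every gene left of the line both +Tet points lie above both -Tet points, and to its right both lie below.

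The promoter windows of a few of these genes are shown because MeTA is directed at methylated CpG. Each runs from 250 bases before to 50 after a RefSeq transcription start (GRCh38.p14), 5′ to 3′ on the strand of the gene, with every CG pair in capitals. ZNF503-AS2 (chr10:75401278-75401577, plus strand) holds 39 CG pairs. LINC00205 (chr21:45287802-45288101, plus strand) holds 34. MIR503HG (chrX:134546581-134546880, minus strand), a microRNA host described next, holds 10.
ZNF503-AS2: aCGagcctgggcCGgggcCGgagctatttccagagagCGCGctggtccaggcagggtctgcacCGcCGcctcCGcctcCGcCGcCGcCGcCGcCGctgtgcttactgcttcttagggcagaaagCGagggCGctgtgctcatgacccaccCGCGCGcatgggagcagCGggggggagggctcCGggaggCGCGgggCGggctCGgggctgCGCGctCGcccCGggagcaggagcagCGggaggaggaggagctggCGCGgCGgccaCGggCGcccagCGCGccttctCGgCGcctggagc
LINC00205: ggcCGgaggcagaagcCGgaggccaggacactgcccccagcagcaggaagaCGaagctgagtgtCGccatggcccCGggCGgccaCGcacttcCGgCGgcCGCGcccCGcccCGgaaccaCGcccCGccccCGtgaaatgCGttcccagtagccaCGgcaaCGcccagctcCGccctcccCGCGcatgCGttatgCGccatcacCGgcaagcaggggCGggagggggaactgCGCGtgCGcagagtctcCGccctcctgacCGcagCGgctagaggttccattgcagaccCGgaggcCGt
MIR503HG: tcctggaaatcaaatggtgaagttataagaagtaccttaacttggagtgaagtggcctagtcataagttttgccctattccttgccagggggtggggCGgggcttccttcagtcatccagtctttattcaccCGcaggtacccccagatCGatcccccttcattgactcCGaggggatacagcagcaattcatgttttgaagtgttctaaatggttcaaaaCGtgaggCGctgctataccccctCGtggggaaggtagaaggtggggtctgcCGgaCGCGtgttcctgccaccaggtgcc

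Of 21 microRNA host genes, 15 had a fold change in each line. MIR9-3HG (NR_015411) and MIR503HG (NR_024607) were higher in both, 2 of 14 or 14.3% against 8.21% of all genes. MIR9-3HG, whose interval holds the MIR9-3 precursor, read 168.5 without and 1301 with tetracycline in TR9_MeTA14, and 88.8 and 409.2 in TR15_MeTA5. Those are log2 fold changes of 2.62 and 1.64, the former the highest value or bound in TR9_MeTA14. MIR503HG, an X-linked host of MIR503, went from 36.9 to 137.2 and from 18.6 to 89.1, for log2 fold changes of 1.57 and 1.70. MIR9-2HG, the host of another miR-9 precursor, was above background in the +Tet arrays alone, at 33.4 and 31.0 against 3.28 and 3.23, at least 1.72-fold and at least 1.36-fold higher. Another MIR9-2HG probe went the opposite way in TR9_MeTA14, from 27.4 to 3.32, and was not above background in TR15_MeTA5.

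Other hosts were lower with tetracycline. In TR9_MeTA14, 4 of 15 were at least 2-fold lower, 26.7% against 15.1% of all genes. MIR17HG, host of the miR-17 cluster, went from 59.3 to 8.30, which is not well above background, and was at least 5.36-fold lower, while in TR15_MeTA5 it read 20.1 and 24.1 (-0.30 after scaling). MIRLET7BHG went from 2544 to 1070 in TR9_MeTA14 (log2 fold change -1.58) and from 510.1 to 645.2 in TR15_MeTA5 (-0.23). MIR550A3HG and MIR600HG were the others, at -1.62 and -1.04. In TR15_MeTA5 the lower hosts, 2 of 15 or 13.3% against 2.22%, were MIR22HG, at -1.15, and MIR23AHG, at -1.03. Both were also negative in TR9_MeTA14, at -0.94 and -0.71. The spike-in scale raised values in TR15_MeTA5 by 0.43, which puts both within 2-fold. MIR155HG, known for its role in lymphocytes, was not well above background on any array.

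The arrays measured host transcripts and not the microRNAs. For orientation, a selection of mature microRNAs from these hosts is given from RefSeq, 1 arm of each precursor, with bases 2 to 8, the seed that pairs with targets, in capitals. Those shown for MIR17HG share seeds in pairs, miR-17-5p with miR-20a-5p and miR-19a-3p with miR-19b-3p. The let-7-5p microRNAs of MIRLET7BHG also share a seed.
hsa-miR-9-5p: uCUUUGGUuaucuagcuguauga
hsa-miR-503-5p: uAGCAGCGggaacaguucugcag
hsa-miR-17-5p: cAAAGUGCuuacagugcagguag
hsa-miR-20a-5p: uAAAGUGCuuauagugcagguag
hsa-miR-19a-3p: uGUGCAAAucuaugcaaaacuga
hsa-miR-19b-3p: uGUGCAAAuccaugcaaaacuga
hsa-let-7a-5p: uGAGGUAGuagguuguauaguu
hsa-let-7b-5p: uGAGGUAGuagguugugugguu

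The SNHG genes were the name group with the largest share of lower genes in TR9_MeTA14, though not in TR15_MeTA5. In TR9_MeTA14, 8 of 15 were at least 2-fold lower and none higher, 53.3% against 15.1% of all genes compared, with a median log2 fold change of -1.78. In TR15_MeTA5 none of 14 was past 2-fold in either direction, and their median was -0.01. The 8 were SNHG1, SNHG3, SNHG5, SNHG6, SNHG8, SNHG15, SNHG17 and SNHG29. With 1 array per condition, the difference between the lines was not tested.

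SNHG8 read 55258 without and 13835 with tetracycline in TR9_MeTA14, and 29629 and 36614 in TR15_MeTA5, log2 fold changes of -2.33 and -0.26. SNHG1, which carries a set of small nucleolar RNAs, went from 10770 to 2592 and from 4431 to 6708, or -2.39 and 0.03 on the log2 scale. SNHG5 went from 8327 to 1968 and from 7066 to 9526, or -2.41 and -0.13. In each of the 3, the TR9_MeTA14 +Tet array was the lowest of the 4. SNHG29, among the brightest long noncoding RNA genes on the arrays, had the lowest value of the group, with 39015 and 8804 in TR9_MeTA14, 38926 and 40769 in TR15_MeTA5 and log2 fold changes of -2.48 and -0.50.

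The other SNHG genes with measured folds were past 2-fold in neither line. SNHG12 read 5462 and 5074 in TR9_MeTA14, and SNHG9 read 37859 and 28731. Whether the signal without tetracycline bears on the fold change was not tested. SNHG10 was near 0 in both, at 0.17 and 0.01. SNHG4 was above background on the TR9_MeTA14 +Tet array alone. Long noncoding RNA genes outside the name rule that also carry small nucleolar RNAs, and were listed for comparison with earlier results known, had values of the same size in TR9_MeTA14: GAS5 at -2.80, ZFAS1 at -2.29 and DANCR at -1.79. In TR15_MeTA5 they were at -0.21, -0.44 and -0.45.

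Other transcripts were also lower on that array. Of the 10 LNCaP markers, 7 were at least 2-fold lower in TR9_MeTA14 with tetracycline and 0 in TR15_MeTA5. The shares over all genes compared were 15.1% and 2.22%. In TR15_MeTA5 the markers were negative as well, from -0.98 for KLK2 to -0.35 for KRT8, apart from TRPM8, which had no fold. Their summed signal relative to the 75th percentile read 509.5 without and 177.3 with tetracycline in TR9_MeTA14, and 678.1 and 426.7 in TR15_MeTA5. Their part in the SNHG result was not tested. In bulk RNA, fewer cells of a type and less RNA per cell cannot be told apart.

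**Figure D3:**
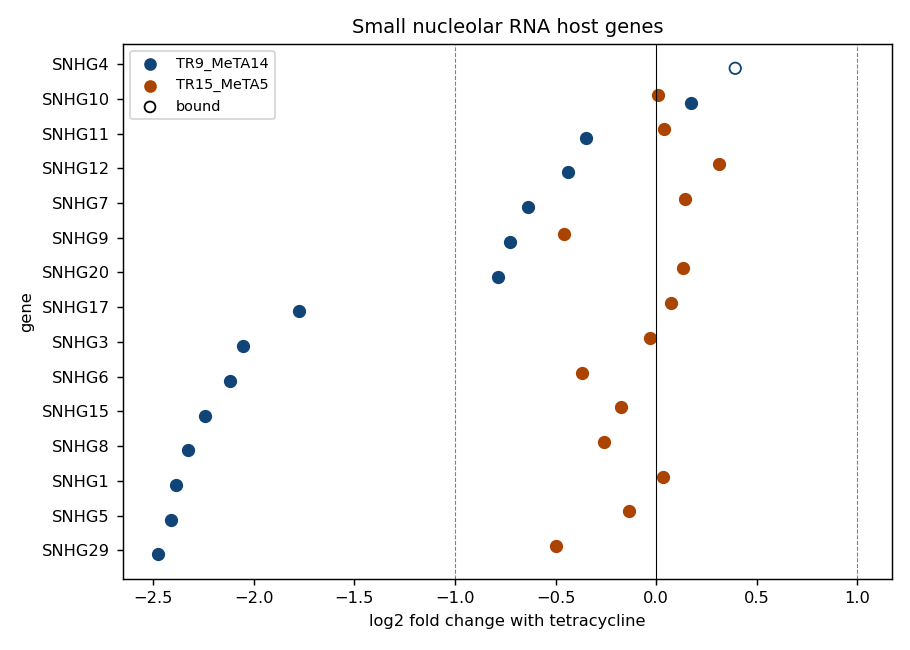
Log2 fold change with tetracycline (x axis) of the 15 SNHG genes (y axis, ordered by the value in TR9_MeTA14), with 1 point per line and dashed lines at 2-fold. The lowest 8 in TR9_MeTA14 run from -2.48 to -1.78, and every TR15_MeTA5 point lies inside the dashed lines.

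A bright SNHG promoter is shown for comparison with the windows above. SNHG8 (chr4:118278512-118278811, plus strand) holds 29 CG pairs, between the 10 of MIR503HG and the 34 of LINC00205.
SNHG8: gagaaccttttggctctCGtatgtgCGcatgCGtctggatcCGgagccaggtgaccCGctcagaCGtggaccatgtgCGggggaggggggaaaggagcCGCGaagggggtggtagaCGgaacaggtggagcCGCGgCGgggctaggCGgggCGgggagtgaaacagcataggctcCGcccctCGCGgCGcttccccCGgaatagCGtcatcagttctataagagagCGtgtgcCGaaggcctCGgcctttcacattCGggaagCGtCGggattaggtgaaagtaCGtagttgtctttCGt

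LINC00161 and ZBED3-AS1 were lower in both lines. LINC00161 (NR_026552) went from 228.5 to 34.0 in TR9_MeTA14, a log2 fold change of -3.08 and the lowest value or bound there, and from 83.8 to 25.5 in TR15_MeTA5. The latter array was not well above background, so it was at least 4.86-fold lower, and limma gave an adjusted p of 0.053. ZBED3-AS1 (NR_024398), antisense to a zinc-finger gene, went from 69.7 to 37.4 and from 47.2 to 29.6, log2 fold changes of -1.23 and -1.24. On the spike-in scale and under normexp ZBED3-AS1 was no longer past 2-fold in both lines, and 1 gene was lower in both. Under normexp its value in TR9_MeTA14 was -0.50. The promoter window of LINC00161 (chr21:28539068-28539367, plus strand) holds 1 CG pair.
LINC00161: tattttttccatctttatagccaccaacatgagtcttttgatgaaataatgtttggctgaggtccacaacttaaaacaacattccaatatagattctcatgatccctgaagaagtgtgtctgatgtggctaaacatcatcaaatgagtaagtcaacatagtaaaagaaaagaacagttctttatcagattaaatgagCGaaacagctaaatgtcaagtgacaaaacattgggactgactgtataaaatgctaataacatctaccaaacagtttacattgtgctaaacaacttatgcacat

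Several genes were past 2-fold in a single line. In TR9_MeTA14, MAPT-AS1 was at least 5.13-fold and LINC00608 at least 4.11-fold higher, and both were above background on that +Tet array alone. LINC02610 had a log2 fold change of 2.28 in TR9_MeTA14 and 0.87 in TR15_MeTA5, LINC02878 1.96 and at least 0.72, SLCO4A1-AS1 1.93 and 0.47, and LINC00324 1.80 and -0.10. The largest decreases in TR9_MeTA14 among genes not past 2-fold in both lines were SPATA3-AS1, at least 7.29-fold lower, PEG3-AS1, which went from 229.3 to 40.2, and EPB41L4A-AS1, which went from 16034 to 3090. In TR15_MeTA5, EPB41L4A-AS1 read 7908 and 9624, a scaled log2 fold change of -0.28.

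In TR15_MeTA5, GABPB1-AS1 went from 16.9 to 144.6, a log2 fold change of 2.54 and the highest value or bound there, whereas in TR9_MeTA14 it went from 136.4 to 109.3 (-0.65). The 16.9 was near 15.4, the lowest signal called well above background on the TR15_MeTA5 -Tet array. LINC00163 was at least 3.78-fold higher in TR15_MeTA5 and had 0.96 on the log2 scale in TR9_MeTA14. IDI2-AS1 had 1.67 and 0.97, LINC00698 1.51 and -0.28, PCGF3-AS1 at least 1.5 and -0.29, and B3GALT5-AS1 1.12 and 0.92, each with the TR15_MeTA5 value first. Among genes not past 2-fold in both lines, the largest decreases there were EPHA5-AS1, at least 5.55-fold lower, MRGPRG-AS1, at least 2.55-fold lower, and TNS2-AS1, at -1.23.

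The lines already differed without tetracycline. Of 243 genes, 19 were at least 2-fold higher in TR15_MeTA5 -Tet than in TR9_MeTA14 -Tet, 7.82% against 8.2% of all genes, and 22 were lower, 9.05% against 5.18%. These 41 became 139 on the spike-in scale and 15 after normexp. The spike-in scale shifts every gene of an array by the same amount. No share over all genes was computed on these scales, so the counts describe the list alone. LINC00923 read 2469 in TR9_MeTA14 -Tet and 166.8 in TR15_MeTA5 -Tet, a log2 difference of -3.13. PEG3-AS1 was at least 8.82-fold lower in TR15_MeTA5 -Tet, GABPB1-AS1 had a log2 difference of -2.26, and LINC00324 one of 2.13. The GABPB1-AS1 signal in TR15_MeTA5 -Tet, 16.9, was near the lowest called well above background on that array. EPHA5-AS1 was above background in TR15_MeTA5 -Tet alone and was at least 7.86-fold higher there.

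The coding gene beside each long noncoding RNA gene was then examined. A nearest coding gene with a probe was found for 507. Of the 9 genes higher in both lines, 4 lay beside a coding gene that was also higher in both, 44.4%. Over all 507 pairs the nearest coding gene was higher in both lines in 4.93%, and for genes outside the name rule that were higher in both the share was 13.9% (143 of 1029). With 9 genes the count is a description, and it was 2 under quantile normalization and under normexp, where FOXD2-AS1 and LINC00205 were no longer past 2-fold in both lines. The 4 pairs were ZNF503-AS2 with ZNF503, LINC00205 with POFUT2, SNAI3-AS1 with SNAI3 and FOXD2-AS1 with FOXD2.

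FOXD2 read 12.4 without and 645.2 with tetracycline in TR9_MeTA14, and 6.14 and 212.0 in TR15_MeTA5, at least 33.2-fold and at least 9.33-fold higher, both above the values of FOXD2-AS1. SNAI3 had log2 fold changes of 4.29 and 1.76, also above those of SNAI3-AS1. ZNF503 had 1.81 and 1.63, and POFUT2, which adds fucose to secreted proteins, had 1.77 and at least 1.93. ZNF503 and POFUT2 lie on the opposite strand to their partners with transcription starts within 1 kb. For the other 5 no neighbour was past 2-fold. A1BG had 0.22 and 0.17, LBX1 -0.30 and -0.43, and POLG beside MIR9-3HG 0.82 and 0.30, while FAM83A and PLAC1 were above background on the TR9_MeTA14 +Tet array alone and had no fold.

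The reverse was seen as well. The nearest coding gene was higher in both lines for 25 of the genes, of which 14 were not well above background on any array and 8 had a fold change in both lines. INHBB, a subunit of inhibin and activin, had log2 fold changes of 6.65 and 5.37, and LINC01101 beside it 0.09 and 0.21. MCF2L had 2.84 and 2.20 and MCF2L-AS1, on the opposite strand with a start within 1 kb, 0.01 and -0.01. MCF2L-AS1 was bright, at 4468 and 5651 in TR9_MeTA14 and 2142 and 3147 in TR15_MeTA5. FAM222A had 3.23 and 2.64, and FAM222A-AS1, which overlaps it, -1.10 and -0.56.

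LINC01124, within 1 kb of the start of the Wnt-responsive factor SP5, was above background in TR9_MeTA14 +Tet alone, at least 2.89-fold higher, and SP5 had 5.94 and at least 4.51 on the log2 scale. COL18A1-AS1 was likewise above background on that array alone, at least 1.70-fold higher, beside COL18A1 at 4.88 and 2.44. CYP1B1-AS1 was not well above background on any array, whereas CYP1B1 was at least 4.56-fold and at least 5.79-fold higher. POPDC1-AS1 was above background in TR9_MeTA14 +Tet alone, and no fold could be given for it in either line. It overlaps POPDC3, while POPDC1, its partner by name, was at 1.36 and at least 1.02. PDCD4, a tumour suppressor that inhibits translation, was lower, at -2.0 and -1.02, and PDCD4-AS1 was at -0.58 and 0.31.

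Across the pairs with both genes above background on both arrays, Pearson's r between the 2 log2 fold changes was 0.29 over 181 pairs in TR9_MeTA14 and 0.13 over 148 pairs in TR15_MeTA5. Over pairs on opposite strands with starts within 1 kb it was 0.59 over 48 and 0.25 over 40, with Spearman's rank correlation at 0.59 and -0.15. These values are across genes measured on the same pair of arrays, are not independent replicates, and carry no p.

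**Figure D4:**
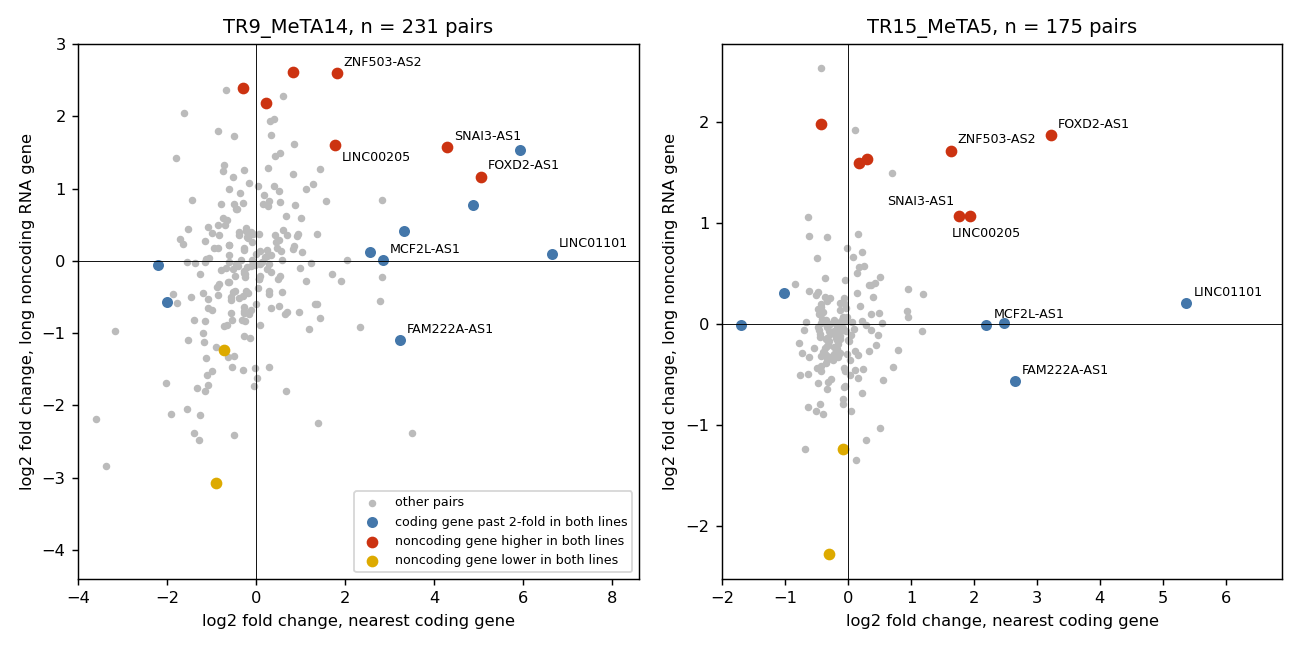
Log2 fold change of the nearest coding gene (x axis) against that of the long noncoding RNA gene (y axis) in each line, for 231 and 175 pairs with a value or bound for both genes. Red points, the noncoding genes higher in both lines, include 4 with a changed coding gene, and the blue points at the right of each panel are coding genes higher in both lines, whose noncoding neighbours lie between -1.10 and 1.53 in the left panel and between -0.56 and 0.21 in the right.

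A promoter window was at hand for 401 of the 550 genes. Its median number of CG pairs was 11, against 22 for all genes on the array and 14 for all windows in the table. The median was 6 for LINC genes, 20.5 for antisense genes, 27.5 for SNHG genes and 11.5 for microRNA hosts. Genes not well above background on any array had a median of 5, and those with folds in both lines past 2-fold in neither 18. The 6 of 9 higher genes that had a window ranged from 10 for MIR503HG to 39 for ZNF503-AS2 and SNAI3-AS1, with a median of 25. The median over all genes higher in both lines was 23, and 25 for all genes past 2-fold in neither. No methylation was measured on these arrays.

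**Figure D5:**
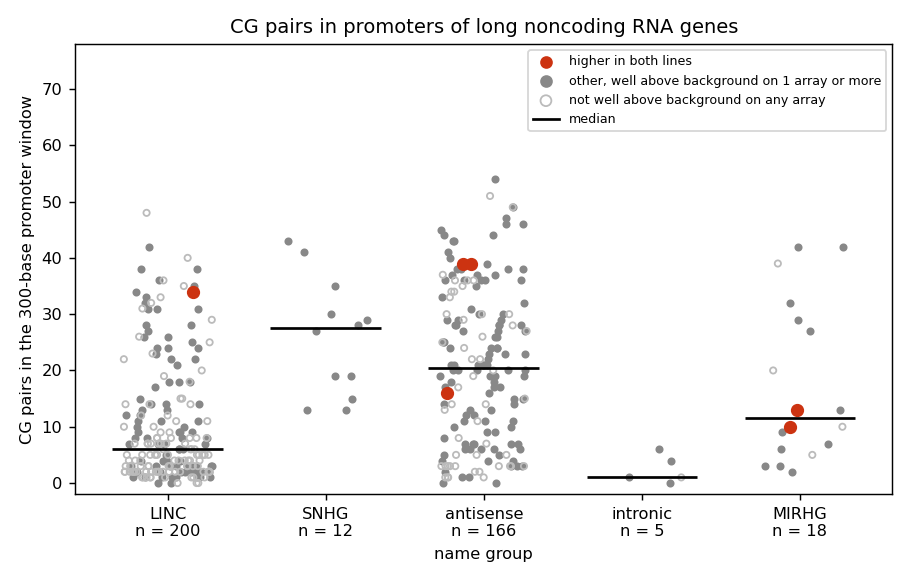
Number of CG pairs in the 300-base promoter window (y axis) of the 401 genes with a window, by name group, with a line at the median of each group. Red points are genes higher in both lines, and open points are genes not well above background on any array, which gather at low counts among the LINC genes.

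Several genes had probes that disagreed, out of 72 with more than 1 probe. For LINC00937 the brightest probe gave log2 fold changes of -0.44 in TR9_MeTA14 and -0.59 in TR15_MeTA5, while another gave -2.40 and -1.35. For LINC01061, whose brightest probe gave 0.26 and 0.71, 1 of 7 probes gave -2.40 and -1.91. For MATN1-AS1 the brightest probe gave -0.26 and -0.16 and the other -1.78 and -0.04. Which part of a transcript each probe reads is not known here.

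The brightest long noncoding RNA genes were LINC01001, SNHG29, SNHG9, SNHG8, HLA-F-AS1 and SNHG3. LINC01001 ranged from 57312 to 106068 over the arrays and was at 0.45 and -0.37, but at 1.22 in TR9_MeTA14 under quantile normalization and 1.20 under normexp, past 2-fold. HLA-F-AS1 was at -1.73 and -0.55, and SNHG3 went from 56527 to 17093 in TR9_MeTA14 and was at -0.03 in TR15_MeTA5. ZEB1-AS1, at -0.45 and -0.09, and LINC00467, at -0.37 and -0.25, stayed within 2-fold in both lines. Of 32 other long noncoding RNA genes listed by name outside the rule, 22 had a probe. Of these 22, 2 were higher in both lines, beside 8.21% of all genes compared. HOXA11-AS read 163.3 without and 2772 with tetracycline in TR9_MeTA14, and 46.6 and 3093 in TR15_MeTA5, log2 fold changes of 3.75 and 5.49. H19, an imprinted transcript, read 351.4 and 334.1 in the +Tet arrays, and neither -Tet array was well above background.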

How the data were processed

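Total RNA of both lines, untreated or after 4 days of tetracycline, had been labelled with Cy3 and hybridised to Agilent whole human genome arrays, 1 per condition. The deposited intensity values are the processed signals of Agilent Feature Extraction, background-subtracted by the authors' software and not normalized between arrays. The file headers give version 10.7.3.1 and the submitters' processing notes 9.5.1, and the notes name hg19. Outlier spots were left out, spots of a probe averaged, and log2 intensity minus the 75th percentile of each array taken. Probes were named by RefSeq accession (25422 of 34127 probes). Fold changes needed the brighter array well above background. limma 3.58.1 in R 4.3.3 (cell line plus tetracycline, intensity trend) was fitted on probes above background on at least 2 arrays, and was tested on simulated data.

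Genes named in the text were the 12 largest increases and 6 largest decreases in both lines, the 6 brightest, those passing limma, the 6 largest increases and 3 largest decreases in a single line, antisense genes beside a coding gene changed in both, and a fixed list, HOXA-AS2 of which was not analysed here. Others (the remaining SNHG and microRNA host genes, LINC00923, LINC00937, LINC01061, LINC01101, LINC01124, MATN1-AS1) were chosen after their values were seen. The members and lists were chosen with earlier results of these data known. No test was possible within a line, and precision is limited by the 4 arrays. Promoters and microRNAs are from RefSeq, GRCh38.p14; the first listed start of a gene was used. Quantile normalization, a median scale, spike-in probes, normexp, other filters and other cut-offs were tried.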

Additional observations from a re-analysis of the deposited data

Results flagged for a closer look

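GABPB1-AS1 moved in opposite directions in the lines. Its log2 fold change was 2.54 in TR15_MeTA5 and -0.65 in TR9_MeTA14, a difference of 3.19. The line with the increase started from 16.9 and reached 144.6, close to the 136.4 that TR9_MeTA14 read without tetracycline. The 16.9, on which the difference rests, was near 15.4, the lowest signal called well above background on that array. LINC00923 also moved in opposite directions, at 0.86 in TR15_MeTA5 and -1.80 in TR9_MeTA14, a difference of 2.66, and its signals were 166.8 and 447.9 in the former and 2469 and 890.1 in the latter. The differences were not tested, since each rests on 1 array per condition.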

How the results depend on the processing

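No paired analysis by replicate number was possible because each group holds 1 array under a single number, and no replicate could be left out. The limma model does pair the arrays by cell line. Scalings of the untreated comparison, of the neighbours, of the promoters and of the SNHG count were chosen after seeing the data. The 8 SNHG genes lower in TR9_MeTA14, and 0 in TR15_MeTA5, kept their counts under all 4 other scalings. The spike-in scale, which rests on 8 probes, put the median over probes above background on all arrays at -0.01 in TR9_MeTA14 and 0.25 in TR15_MeTA5. In each of the following, TR9_MeTA14 comes before TR15_MeTA5, and causes were not tested where the setting does not itself remove genes or arrays.

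Quantile normalization gave medians of -0.22 and -0.16, 14 lower in TR15_MeTA5, 2 of the higher genes beside a higher coding gene and 1 lower by limma, and it left 7 of the 9 higher genes past 2-fold in both lines. FOXD2-AS1 and LINC00205 were lost. Scaling to the median of probes above background on all arrays kept all 9, gave a median of 14.5 CG pairs for the higher genes and 1 lower by limma. The spike-in scale kept all 9 and gave 16 higher and 1 lower in both, 27 higher and 2 lower in TR15_MeTA5, medians of 0.090 and 0.36, 139 genes past 2-fold between the untreated lines, and 6 higher and 1 lower by limma. The sign of the group medians thus depends on the scale. Shares over all genes were not computed on the other scales, so these counts describe the list alone. Normexp with an offset of 50, which compresses dim probes, gave 12 higher and 24 lower in TR9_MeTA14, 8 higher and 4 lower in TR15_MeTA5, 4 higher and 1 lower in both, 15 between the untreated lines, 2 beside a higher coding gene and a median of 39.0 CG pairs; FAM83A-AS1, LBX1-AS1, MIR503HG, FOXD2-AS1 and LINC00205 were lost.

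Requiring all 4 arrays above background left 210 genes, compared here with all genes under the same filter. In TR9_MeTA14, 16 were higher, 7.62% against 13.7%, with a median of -0.16 against -0.14. In TR15_MeTA5, 4 were lower, 1.9% against 1.42%. In both lines 7 were higher, 3.33% against 5.51%, and 1 was lower, 0.476% against 0.693%. With this filter limma gave 0 higher, as LBX1-AS1 is then not tested, and no share over all genes was computed for that fit. Counting every probe gave 14 lower in TR15_MeTA5 and 5 lower in both. A 3-fold cut-off gave 15 higher and 27 lower, 10 higher and 2 lower, and 5 higher and 1 lower in both. A 1.5-fold cut-off gave 65 higher and 82 lower, 26 higher and 27 lower, and 18 higher and 13 lower in both. No share over all genes was computed at these cut-offs or for the count over every probe, so these counts describe the list alone. limma without a filter gave 6 higher and 1 lower, without the cell line block 2 and 1, and without the trend 2 higher. These fits, too, have no share over all genes. Of 49 values of named genes past 2-fold, 44 to 49 stayed past it under the first 3 scalings and 28 under normexp, with no change of sign. Over all values of named genes, 5 of 88 changed sign under quantile normalization, 11 of 88 on the spike-in scale and 3 of 87 under normexp.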
